A study of Danio rerio with 7 samples.

Results

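Synaptic vesicle and membrane fusion genes were followed in whole-head RNA of zebrafish (Danio rerio) at an age of 5 days post fertilization (dpf), comparing wild type (WT) larvae with hm41 mutants, which the series' design text describes as siblings. The genes were taken by name from the deposited table: 44 were named, covering fusion proteins, synaptotagmins, vesicle membrane proteins, active zone proteins, complexins and endocytosis proteins. Of these, 41 were rows of the table, out of 30421 rows in all. The active zone and priming genes rims1b, unc13a and unc13ba had no row under those names. A row named si:dkey-110c1.7, which RefSeq lists as a synonym of unc13a, lies outside this choice and is described with the active zone genes. Of the 41 rows, 40 passed the filter on low counts, and the remaining gene, stx1a, was not tested.

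Each of the 6 libraries is a pool of heads, 3 from WT larvae (numbered 66, 67 and 68) and 3 from larvae labelled hm41 mutant (69, 70 and 71), all at 5 dpf. The labels give neither the number of heads in a pool nor whether the mutants were homozygous, and they name no batch and no treatment. The libraries were made to find the lesion behind a leaky blood-brain barrier, which the submitters place on chromosome 14, in spock1, a secreted proteoglycan gene. The level of spock1 was 2.78, 2.01 and 1.95 CPM (counts per 1000000 of the library total after scaling by its normalization factor) in WT and 2.20, 1.67 and 1.37 CPM in hm41, with overlap. The series also holds 1 single-cell library, which was not analysed here.

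A synaptic vesicle filled with transmitter is docked and primed at the active zone of the presynaptic membrane. SNARE proteins on the vesicle (the VAMP proteins) and on the cell membrane (syntaxin and the snap25 products) then zip together, synaptotagmin senses the calcium that enters, and the membranes fuse. The ATPase NSF with its attachment proteins takes the used SNARE complexes apart, and dynamin, endophilin, amphiphysin and synaptojanin retrieve the vesicle membrane. Many of these genes exist as a pair of paralogs in zebrafish, marked a and b, from the genome duplication of the teleost lineage.

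The libraries held 33775984 to 114604258 counts, but the 8 most abundant rows took 93.6% to 95.7% of them and left 1664845 to 4959749 counts for other genes. A level of 1 CPM stood for 30.3 to 91.2 counts. WT 67 had the fewest counts outside those rows and stood apart on the principal component with 34.3% of the variance. On the component with 24.4%, hm41 69 (68.8) and hm41 71 (-48.1) lay at opposite ends, with the other libraries between -11.5 and 6.6. The row LOC110438492 was abundant in 3 libraries (WT 68, hm41 70 and hm41 71, 2589780 to 5141165 counts) and nearly absent elsewhere, so it split both genotypes. The neuron markers elavl3, elavl4 and stmn2b were present in every library, while gap43 was listed at 0 in all 6. Nothing in the labels says that the libraries of a genotype came from separate clutches, so p-values measure the spread between these libraries, which may be technical.

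Across the 40 tested genes, values tended to be higher in hm41 heads, and a single gene passed the test over all genes. This was napba, a soluble NSF attachment protein gene, which rose 1.88-fold (edgeR's quasi-likelihood test, Benjamini-Hochberg adjusted p = 0.0182). Calls in that direction made up 0.0156% of the 19275 genes tested, 3 genes in all. By edgeR 0 members were called lower, and 0 were lower at an unadjusted p under 0.05. With calls for only 0.0415% of all genes in that direction, the first count is near the background. DESeq2 also called 0 lower, but could not call nsfb, syt1b, syt2a and syn2b. These lay below 0 and were given no adjusted p. The median log2 fold change, hm41 over WT, was 0.35 over the 40 genes and -0.02 over all genes tested. Of the 40 values, 32 lay above 0, against 47.9% of all genes. In whole heads, more cells of a type and more RNA per cell cannot be told apart, and neuron markers were higher in the same libraries (summed level 135 to 152 CPM in WT and 168 to 205 CPM in hm41).

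At an unadjusted p under 0.05, 18 of the 40 genes (45.0%) were higher in hm41, against 5.35% of all genes, and 0 were lower, against 5.05%. For 15 genes (37.5%) every hm41 library lay above every WT library, as it did for 8.09% of all genes. The reverse order was seen for 0 members and for 8.44% of all genes. The genes were chosen with earlier results of these data known, so these shares describe the list and do not test it. DESeq2, which called more genes in general (0.706% of all genes higher and 0.285% lower), called 10 members, all higher: napba, nsfa, stxbp1a, sv2a, syn1, sypa, sypb, cplx2, cplx4a and dnm1b. It gave no adjusted p for 12 members. Genes without an adjusted p count as not called in the DESeq2 shares. Among the genes that DESeq2 could call, the shares were therefore larger, by an amount not computed here. Without the low-count filter edgeR called 0.242% of all genes higher and 0.231% lower, and 5 members higher, namely napba, nsfa, sv2a, sypa and cplx4a. Without WT 67 and hm41 69, a setting chosen after the data were seen, 12 members were higher and 2 lower at an unadjusted p under 0.05, against 5.61% and 5.07% of all genes. With those 2 libraries left out, 18 members were higher and 5 lower without overlap, against 20.2% and 21.8% of all genes.

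**Figure D1:**
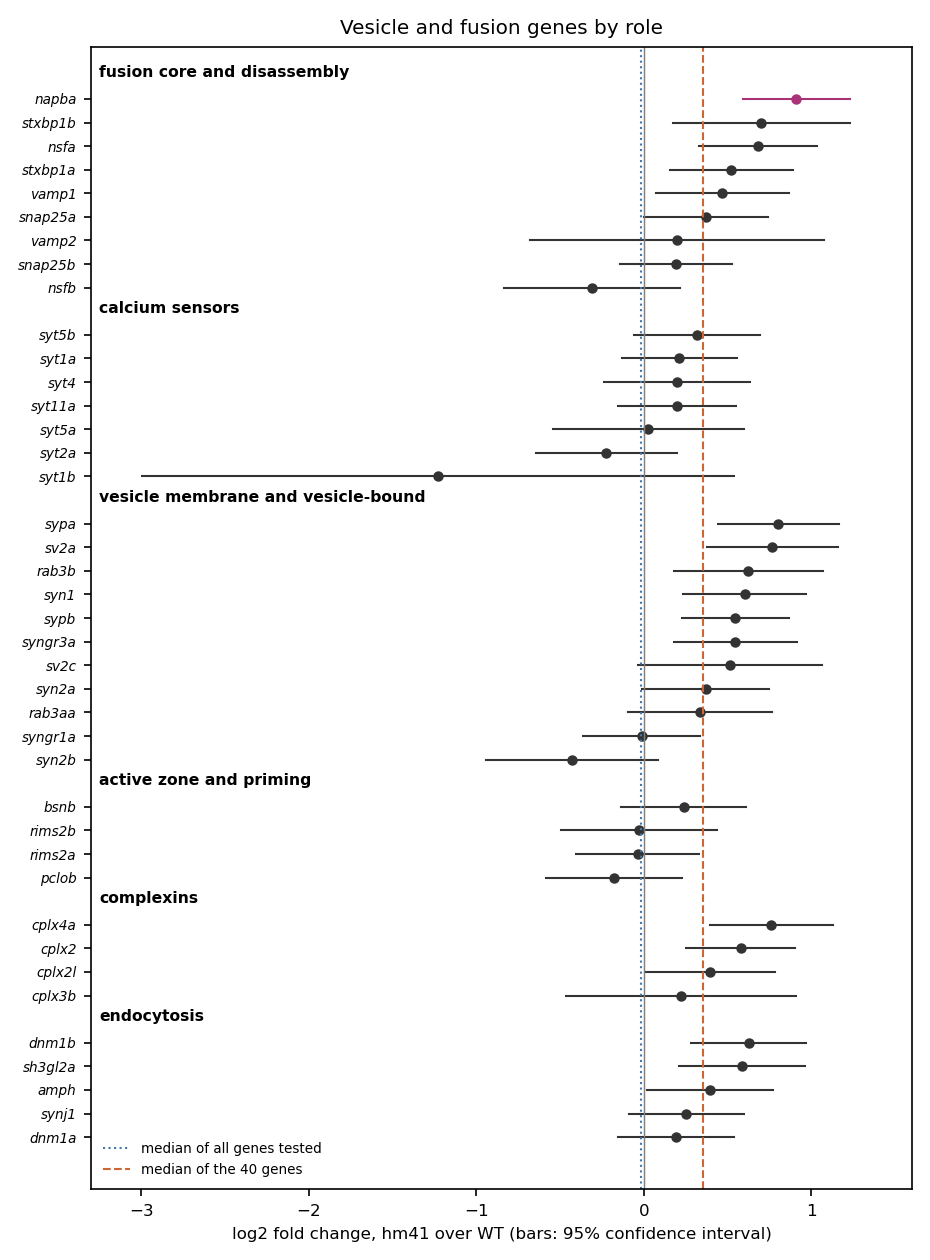
Log2 fold change of hm41 over WT (horizontal axis) for each of the 40 tested genes, grouped by role, with 95% confidence intervals. The gene drawn in purple, napba at 0.91, is the single call at an adjusted p under 0.05. The dashed line marks the median of the 40 genes (0.35) and the dotted line that of all genes tested (-0.02).

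The genes of the fusion machinery included the call. The level of napba was 5.12, 4.95 and 5.17 CPM in WT 66, 67 and 68, and 9.58, 9.68 and 9.40 CPM in hm41 69, 70 and 71. The groups lay far apart and the 3 values in each lay close together, with means of 5.08 ± 0.117 and 9.55 ± 0.141 CPM (SD, 3 libraries each). An SD of 3 libraries says little of how much pools vary. On the log2 scale the change was 0.91 ± 0.152 (SE; 95% confidence interval of the fold 1.51 to 2.34), from 150 to 467 counts per WT library and 375 to 784 per hm41 library. It was the gene with the 9th smallest p of all genes tested. Its size hardly depended on single libraries, from 0.89 to 0.94 in the 6 fits without 1 library, but the call was lost in 4 of them, with adjusted p-values of 0.132 without WT 66, 0.113 without WT 67, 0.147 without hm41 70 and 0.0571 without hm41 71. Without both WT 67 and hm41 69, the value was 0.89 and the adjusted p was 0.0697.

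The other attachment protein genes, named after their values were seen, had fewer counts and wider intervals. The close paralog napbb had 1.15, 1.02 and 1.28 CPM in WT and 1.71, 1.81 and 1.46 CPM in the hm41 libraries (log2 fold change 0.52 ± 0.230, SE; edgeR adjusted p = 0.441), with no overlap between the groups. The values were 0.15 ± 0.311 for napaa, -0.26 ± 0.321 for napab and 0.48 ± 0.324 for the gamma form napgb, all SE. The interval for napab, -0.93 to 0.41, does not reach the value of napba. In the gene order of the RefSeq assembly GRCz12tu, napba lies on chromosome 17, and none of the 41 rows lies on chromosome 14, although cplx2 had no match there. The 3 tested genes on each side of napba had log2 fold changes from -1.14 (bmp2a) to 0.52 (hao1), all with an edgeR adjusted p of at least 0.527.

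The ATPase that works with napba is encoded by nsfa and nsfb, and their values differed. The level of nsfa was 15.0, 11.8 and 14.2 CPM in the WT libraries and 23.4, 23.8 and 18.6 CPM in hm41 69, 70 and 71, without overlap. The difference was 0.68 ± 0.168 on the log2 scale (SE; edgeR adjusted p = 0.146). For nsfb the levels were 1.78, 1.58 and 2.09 CPM in WT and 1.87, 0.987 and 1.68 CPM in hm41. These groups overlap, hm41 70 has the low value, and the log2 fold change was -0.31 ± 0.252 (adjusted p = 0.717).

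Among the SNARE and SNARE-binding genes, stxbp1a and stxbp1b encode the protein that holds and templates syntaxin. Their log2 fold changes were 0.52 ± 0.176 and 0.70 ± 0.253 (SE), with no overlap between the genotypes and edgeR adjusted p-values of 0.274 and 0.322. The vesicle SNARE gene vamp1 had a similar value (0.47 ± 0.191, no overlap, adjusted p = 0.396). For its relative vamp2, hm41 69 had 7.74 CPM and hm41 70 had 3.62 CPM, with hm41 71 lower still, against 2.77 to 5.27 CPM in WT. That gave 0.20 ± 0.376 (adjusted p = 0.906), and -0.30 without hm41 69. The membrane SNARE genes snap25a and snap25b had values of 0.37 ± 0.177 and 0.19 ± 0.161 and overlapping groups. For stx1a, a syntaxin gene, the 6 libraries held 9, 0, 0, 0, 9 and 4 counts, too few for a comparison. Of the 9 tested genes of this role, 8 lay above 0 and 6 had an unadjusted p under 0.05, all higher, against 5.35% of all genes.

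**Figure D2:**
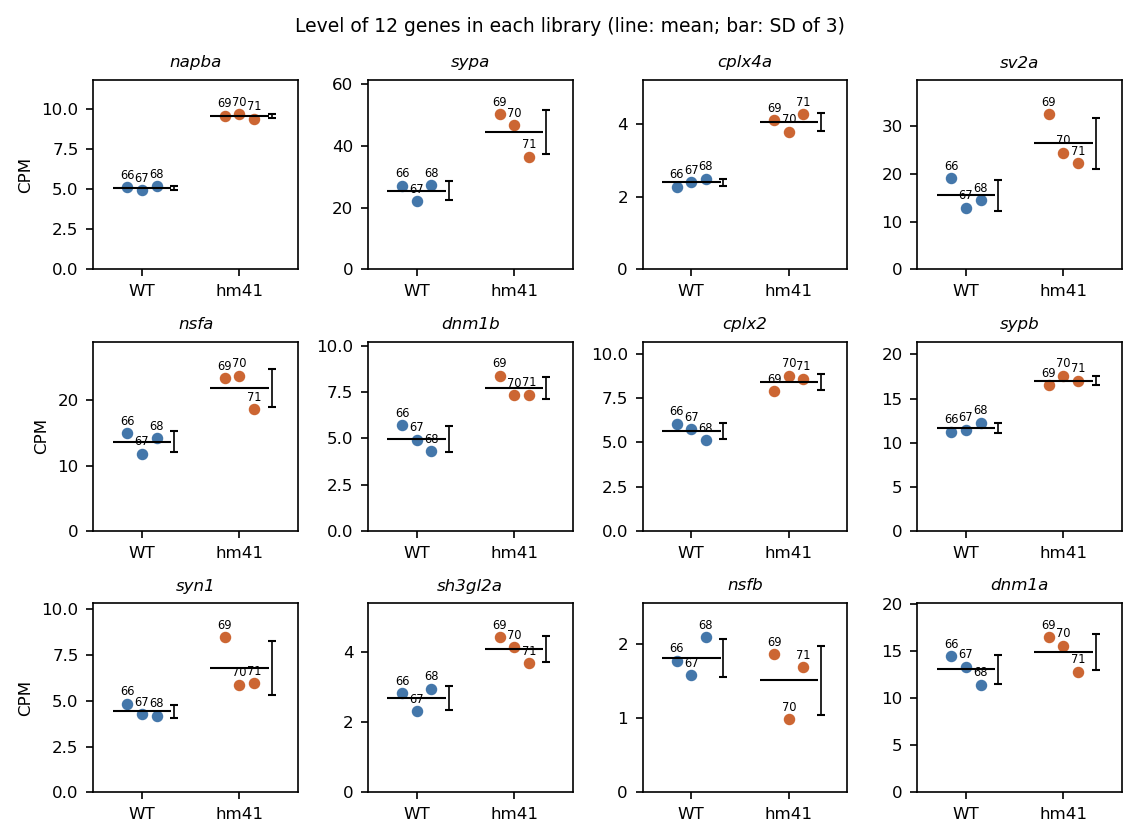
Level in CPM (vertical axes from 0) of 12 genes in each library, with library numbers beside the points, WT in blue and hm41 in orange. Lines are means and bars SD of 3 libraries. For napba the hm41 points sit between 9.40 and 9.68 CPM above WT points of 4.95 to 5.17 CPM, while the groups overlap for nsfb and dnm1a.

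Proteins of the vesicle membrane and proteins bound to it had the highest median of the roles with more than 5 tested genes, 0.55 over 11 genes, of which 9 lay above 0. Synaptophysin is an abundant vesicle membrane protein, and its paralogs sypa and sypb were both without overlap. The levels of sypa were 27.2, 22.1 and 27.4 CPM in WT and 50.3, 46.8 and 36.6 CPM in hm41 69, 70 and 71. The lowest hm41 value, in hm41 71, still exceeded every WT value, and the difference was 0.80 ± 0.173 (log2, SE; edgeR adjusted p = 0.105). For sypb the levels were 11.2, 11.5 and 12.3 CPM against 16.5, 17.6 and 17.0 CPM, a small spread within each group. Its value was 0.55 ± 0.154 (adjusted p = 0.200).

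The vesicle glycoprotein gene sv2a, whose human product binds the antiepileptic drug levetiracetam, had 19.1, 12.9 and 14.4 CPM in WT and 32.5, 24.4 and 22.2 CPM in hm41. In each genotype 1 library, WT 66 and hm41 69, was well above the other 2, and the groups did not overlap (0.77 ± 0.187, SE; edgeR adjusted p = 0.146). The related sv2c had a value of 0.51 ± 0.262. Synapsins tether vesicles in the reserve pool. Levels of syn1 were 4.85, 4.29 and 4.19 CPM in WT and 8.48, 5.89 and 5.96 CPM in hm41 69, 70 and 71, again highest in hm41 69 and without overlap. That gave 0.60 ± 0.176 (adjusted p = 0.204), and 0.42 without hm41 69.

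The other synapsin genes lay on either side of 0, at 0.37 ± 0.180 for syn2a and -0.43 ± 0.245 (SE) for syn2b. In hm41 70 and 71 the level of syn2b was 1.52 and 1.44 CPM, below the WT range of 2.26 to 2.87 CPM, while hm41 69 had 2.84 CPM. Without hm41 69 the value of syn2b was -0.79 (edgeR adjusted p = 0.206), and without hm41 71 it was -0.26. Synaptogyrins are relatives of synaptophysin. For syngr3a the value was 0.55 ± 0.176 with no overlap, and for syngr1a it was -0.01 ± 0.168, with all 6 libraries between 3.49 and 3.86 CPM. The sign of the syngr1a value turns with other scalings (0.21 with library totals alone). The vesicle GTPase genes rab3b and rab3aa had values of 0.62 ± 0.214 and 0.34 ± 0.206 with overlapping groups, and rab3b had 0.39 without hm41 70.

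Complexins bind the assembled SNARE complex and regulate the last step of fusion. All 4 had values above 0. The gene cplx4a, of a complexin type that in the mouse is found at retinal ribbon synapses, had 2.28, 2.41 and 2.49 CPM in the WT libraries and 4.11, 3.79 and 4.27 CPM in the hm41 libraries (0.76 ± 0.176, SE; edgeR adjusted p = 0.130). For cplx2 the levels were 6.05, 5.74 and 5.14 CPM against 7.87, 8.76 and 8.59 CPM (0.58 ± 0.156, adjusted p = 0.181). Neither gene overlapped between the genotypes. The summed level of photoreceptor markers was also higher in hm41 (493 to 533 CPM, against 267 to 385 CPM in WT), with opn1sw1 a large part of it. The part of these markers in the complexin values was not tested. The values of cplx2l (0.40 ± 0.186) and cplx3b (0.22 ± 0.328), the latter from only 18 to 66 counts per library, came with overlapping groups. Without hm41 69 the value of cplx2l was 0.18, and without hm41 70 that of cplx3b was 0.032.

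Endocytosis genes also lay above 0 in all 5 cases. Dynamin pinches vesicles off the membrane, and dnm1b had 5.71, 4.92 and 4.29 CPM in WT heads and 8.38, 7.34 and 7.35 CPM in hm41, without overlap (0.63 ± 0.165, SE; edgeR adjusted p = 0.175). Its paralog dnm1a had 14.4, 13.3 and 11.4 CPM against 16.5, 15.6 and 12.8 CPM, with overlap (0.19 ± 0.166, adjusted p = 0.735). The endophilin gene sh3gl2a, whose product bends membrane, had 2.82, 2.31 and 2.95 CPM against 4.42, 4.13 and 3.69 CPM (0.58 ± 0.179, adjusted p = 0.228), again without overlap. Values for the amphiphysin gene amph and for synj1, which encodes the lipid phosphatase synaptojanin, were 0.39 ± 0.179 and 0.25 ± 0.164, and that of amph was 0.19 without hm41 69.

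By their medians, synaptotagmin and active zone genes stayed closer to the value of all genes. Of the 7 synaptotagmin genes, 5 lay above 0, with a median of 0.20. The values were 0.21 ± 0.163 (SE) for syt1a, a fast calcium sensor, 0.20 ± 0.208 for syt4, 0.20 ± 0.168 for syt11a, 0.32 ± 0.180 for syt5b, 0.03 ± 0.272 for syt5a and -0.22 ± 0.201 for syt2a, another fast sensor. Only the groups of syt5b did not overlap (at most 4.47 CPM in WT and at least 4.61 CPM in hm41), and by edgeR 0 of the 7 had an unadjusted p under 0.05. Over all genes 5.35% were higher and 5.05% lower at that p, and 8.09% were higher without overlap. With 7 genes, both counts are near those shares. DESeq2 called 0 of the 7 and gave no adjusted p for 4 of them. With library totals alone the value of syt2a was 0.02. For syt1b, with 7, 8 and 20 counts in the WT libraries and 1, 13 and 0 in hm41, the log2 fold change was -1.23 ± 0.844. That is the lowest value of the 40 genes, a fold of 0.426 with a 95% confidence interval of 0.125 to 1.45.

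The active zone holds scaffold proteins that place vesicles beside calcium channels. Values were 0.24 ± 0.178 (SE) for bsnb (bassoon), -0.18 ± 0.194 for pclob (piccolo), -0.04 ± 0.175 for rims2a and -0.03 ± 0.222 for rims2b, and with library totals alone the last 3 lay above 0 (0.10, 0.21 and 0.22). By edgeR 0 of these 4 had an unadjusted p under 0.05 or groups that did not overlap, and DESeq2 called 0. Over all genes 5.35% were higher and 5.05% lower at that p, and 8.09% and 8.44% without overlap. With 4 genes, a count of 0 is near those shares. The mean level of si:dkey-110c1.7, the synonym of the priming gene unc13a, was 3.51 ± 0.393 CPM in WT heads and 3.25 ± 0.401 CPM in hm41 heads (SD, 3 libraries each), a difference of -0.12 ± 0.182 (log2, SE). The 95% confidence intervals reached at most 0.33 for rims2a, 0.44 for rims2b and 0.23 for pclob, and 0.61 for bsnb. The difference between roles was not tested.

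Another 100 rows of the presynaptic machinery, from a list of 109 names, were compared in the same fit, of which 93 were tested. Their median log2 fold change was 0.05. By edgeR 0 were called, and DESeq2 called 3, all higher, against 0.706% of all genes called higher by DESeq2. At an unadjusted p under 0.05 in edgeR, 12 (12.9%) were higher and 4 (4.30%) lower, against 5.35% and 5.05% of all genes. Those with the smallest p were the vesicle chaperone gene dnajc5ab (0.65 ± 0.153, SE), the liprin gene ppfia2 of the active zone (-0.70 ± 0.189), the endocytosis genes pacsin1a (0.60 ± 0.171), ap2s1 (0.71 ± 0.206) and itsn2a (-0.76 ± 0.235), and the synaptogyrin gene syngr3b (0.54 ± 0.184). Their edgeR adjusted p-values ran from 0.134 to 0.280. Divided by role, the 16 vesicle membrane genes of this list had a median of 0.42, with 7 (43.8%) higher and 0 lower at an unadjusted p under 0.05. The 20 active zone genes had a median of -0.14, with 0 higher and 2 (10.0%) lower. A list of 20 can differ from the 5.05% of all genes by a gene or so, which covers the 2 lower. The 7 of 16 vesicle membrane genes lay further from the 5.35% of all genes. The 16 fusion genes of this list had a median of 0.05, with 2 (12.5%) higher and 0 lower at that p. For the 15 calcium sensor genes the median was 0.16, with 1 (6.67%) higher and 0 lower. For the 26 endocytosis genes it was 0.05, with 2 (7.69%) higher and 2 (7.69%) lower. Among the 40 genes, the medians of these 3 roles were 0.47, 0.20 and 0.39. These lists were chosen with earlier results of these data known, and the difference between roles was not tested.

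Paralogs were also compared within each library, where the scaling between libraries cancels. The share of a pair's counts on the first gene is not corrected for transcript length, and how reads of near-identical copies were divided is not given in the sources used here. Of 11 pairs, 2 had ratios that did not overlap between the genotypes. Single genes did not overlap in 8.09% (higher) and 8.44% (lower) of all genes tested, so 2 of 11 is near that background. The share of nsfa in the nsf pair was 89.4%, 88.2% and 87.1% in WT and 92.6%, 96.0% and 91.7% in hm41. The log2 ratio of nsfa to nsfb was larger in hm41 by 0.99, and by 0.64 without hm41 70. The share of dnm1a in the dnm1 pair was 71.7%, 73.1% and 72.7% in WT and 66.3%, 67.9% and 63.5% in hm41, and the difference of the log2 ratio, hm41 minus WT, was -0.44. In an exact two-sided permutation test over libraries both gave p = 0.1, the smallest that 3 against 3 allow, and p = 0.55 adjusted over the 11 pairs.

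**Figure D3:**
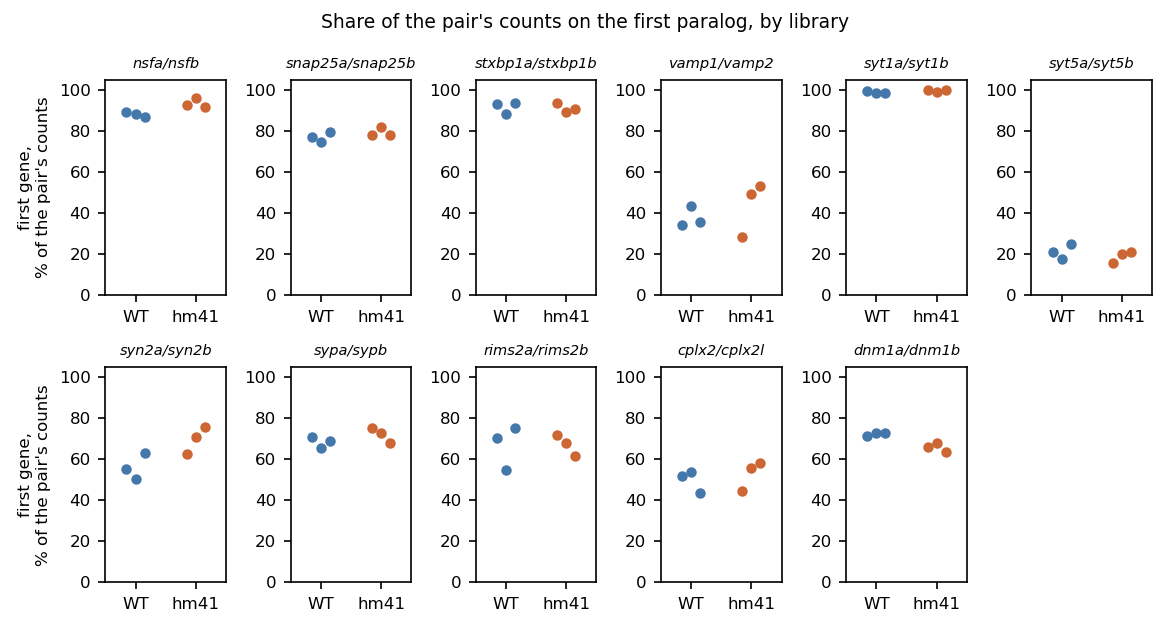
Percentage of the pair's counts that fell on the first gene (vertical axes from 0) in each library, for 11 pairs of related genes, WT in blue and hm41 in orange. The nsf and dnm1 pairs do not overlap between the genotypes, and the other 9 do.

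For syn2a and syn2b the share of syn2a was 55.3%, 50.3% and 62.9% in WT and 62.8%, 71.0% and 76.0% in hm41, which overlap by the value of hm41 69 (difference of the log2 ratio 0.87, exact permutation p = 0.2). The synaptophysin share of sypa ranged from 65.8% to 70.7% in WT and from 68.2% to 75.3% in hm41 (0.25, exact permutation p = 0.3). The snap25a share ranged from 74.8% to 79.6% in WT and from 78.2% to 81.9% in hm41 (0.20, exact permutation p = 0.4). The share of vamp1 among vamp1 and vamp2 was 28.4% in hm41 69, below WT, and 49.5% and 53.5% in the other hm41 libraries, above the WT range of 34.5% to 43.6%.

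Markers of several cell types differed between the same libraries, and their part in the values above was not tested. The summed level of the 40 genes was 236 to 271 CPM in WT and 306 to 384 CPM in hm41. That of 27 tested neuron markers (of 28 named) was 135 to 152 CPM and 168 to 205 CPM. The sums were also apart for the 29 tested of 31 photoreceptor markers. So were those for 11 radial glia markers (93.1 to 120 CPM in WT, 134 to 150 CPM in hm41). For these 4 lists the lowest hm41 sum exceeded the highest WT sum. Within the photoreceptor sum, opn1sw1 alone had 87.4 to 129 CPM in WT libraries, against 211 to 239 CPM for hm41. By the median deviation of the 29 genes from their own means, this list overlapped (log2, 0.05 in WT 68, 0.02 in hm41 69). The sum of 10 epidermis markers was lower in each hm41 library (737 to 863 CPM) than in any WT library (1080 to 1248 CPM). Its largest part was krt4, at 746 to 801 CPM for WT libraries against 445 to 630 CPM for hm41. Of the 10 log2 fold changes 8 lay below 0 and 2 above, with krt93 higher without overlap (1.63). Endocrine markers overlapped (53.5 to 66.5 CPM and 52.8 to 66.6 CPM, with tshba at 0 in all libraries), as did muscle (385 to 742 CPM and 560 to 679 CPM) and lens (7.91 to 55.4 CPM and 37.2 to 82.7 CPM). At an unadjusted p under 0.05, 6 of the 27 neuron markers, 14 of the 29 photoreceptor markers and 6 of the 11 radial glia markers were higher. So were 3 of 9 lens, 2 of 11 muscle, 1 of 10 endocrine and 1 of 10 epidermis markers, against 5.35% of all genes. Lower at that p were 5 epidermis markers and 0 of the other lists, against 5.05% of all genes.

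**Figure D4:**
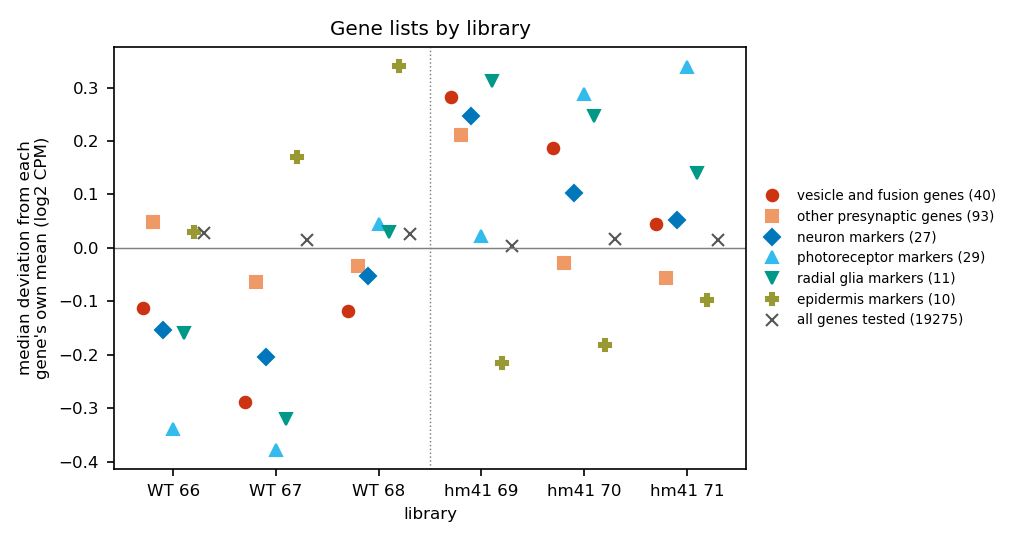
Median deviation of the genes of each list from their own mean over the 6 libraries (vertical axis, log2 CPM), for each library, with the number of genes in brackets. The 40 vesicle and fusion genes lie below 0 in the 3 WT libraries, at -0.29 in WT 67, and above 0 in the 3 hm41 libraries, up to 0.28 in hm41 69, and the neuron markers follow the same order of signs.

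Library by library, the median deviation of the 40 genes from their own means was -0.11, -0.29 and -0.12 on the log2 scale in WT 66, 67 and 68. In hm41 69, 70 and 71 it was 0.28, 0.19 and 0.04. The neuron markers had -0.15, -0.20 and -0.05 in WT and 0.25, 0.10 and 0.05 in hm41. In both lists hm41 69 was the highest library and WT 67 the lowest.

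Relative to the neuron markers the 40 genes as a whole overlapped between the genotypes by both measures used. The mean log2 level of the 40 genes minus that of the 27 markers was 0.47, 0.47 and 0.38 in WT and 0.43, 0.49 and 0.33 in hm41, a difference of -0.03 (exact permutation p = 0.7). That mean includes syt1b, with 0 to 20 counts per library, and was not computed without it. The ratio of the summed levels was 1.85, 1.75 and 1.72 in WT and 1.87, 1.95 and 1.82 in hm41, higher by 0.109 on average with overlapping groups (exact permutation p = 0.2). Both lists were chosen with earlier results of these data known, so these p-values describe them and do not test them. For napba the log2 level minus the mean log2 level of the markers was 0.75, 0.81 and 0.66 in WT. In hm41 it was 1.26, 1.39 and 1.41, without overlap. The difference was 0.61 (exact permutation p = 0.1, the smallest possible). Since napba was singled out as the call in these same libraries, this describes the gene and is not a separate test of it. When all libraries were scaled by the neuron markers, a setting chosen after the data were seen, the median of the 40 genes was 0.07 and that of all genes -0.31. In that fit 5 members were higher at an unadjusted p under 0.05 (napba, nsfa, sv2a, sypa and cplx4a) and 4 were lower (nsfb, syt2a, syn2b and pclob), against 0.716% and 18.8% of all genes, and edgeR called 0 members. Without overlap, 8 members were higher and 4 lower, against 1.59% and 24.2% of all genes. There the value of napba was 0.62 ± 0.164 (log2, SE; adjusted p = 0.0686) and that of syn2b -0.74 ± 0.248 (adjusted p = 0.126).

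**Figure D5:**
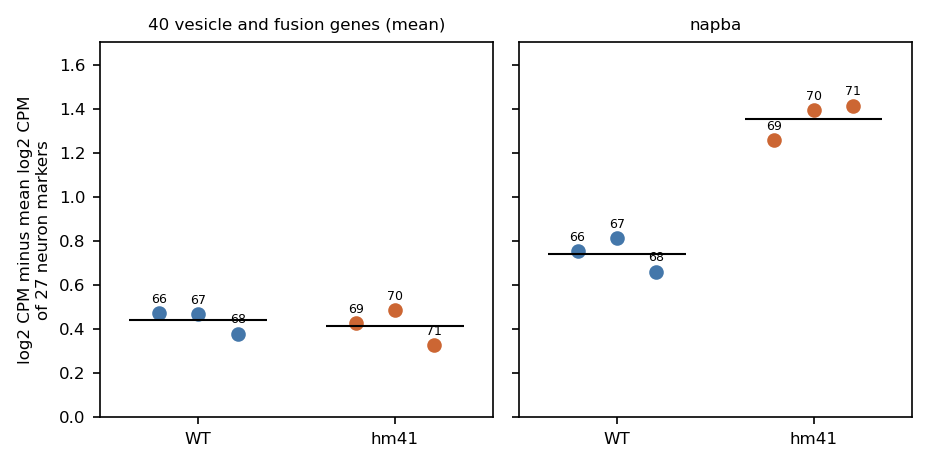
Mean log2 CPM of the 40 genes (left) and log2 CPM of napba (right), each minus the mean log2 CPM of 27 neuron markers, in each library, with library numbers beside the points and lines at the group means. The 40 genes overlap between WT and hm41, while napba lies between 0.66 and 0.81 in WT and between 1.26 and 1.41 in hm41.

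Over the 6 libraries, the genes whose log2 CPM was most like that of napba, among 9882 genes with a mean of at least 1 CPM, were mapk14b (Pearson r = 0.998), nucks1a (0.996), srsf5b (0.994), atp6v1d (0.990) and sgcb (0.989). Among the vesicle and fusion genes the nearest were sypb (0.988) and cplx4a (0.982). These values describe 6 points in 2 genotypes that share their scaling, and a step between the genotypes alone gives a high value. At the other end, syn2b (-0.60), nsfb (-0.45), syt2a (-0.35) and pclob (-0.30) ran opposite to napba.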

How the data were processed

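The values the authors deposited are expected counts, unscaled estimates of reads per gene. Per the submitters' processing notes, the tools were RSEM, TopHat and Bowtie2 and the build GRCz11, listed without role or version. Directional libraries were made from total RNA, per the labels' protocols. Neither annotation nor strand setting is stated in the sources. Values were rounded to whole counts and tested over all genes with edgeR 4.0.16 in R 4.3.3 (quasi-likelihood F-test, robust, TMM normalization, filterByExpr, no covariate, two-sided). The Benjamini-Hochberg method was applied over all 19275 genes tested at a threshold of 0.05. DESeq2 1.42.0 and other settings were alternatives. The edgeR test was tested on simulated data. Paralog ratios used 0.5 added counts.

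The genes and lists were chosen with earlier results of these data known. The rule for genes with values in every library was calls, the 10 smallest p-values and pairs without overlap. A rule by level per transcript length was not applied, since no transcript lengths were at hand, and levels are not compared between genes. RefSeq's table of GRCz12tu gave synonyms, chromosomes and gene order only, with no coordinates used. All library numbers differ and the labels name no pairs, so the libraries were treated as unpaired. Whether WT and hm41 pools came from the same clutches is not given.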

Additional observations from a re-analysis of the deposited data

How the results depend on the processing

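Of the 39 genes with a value in every alternative run as planned, 32 kept their sign, 30 above and 2 below 0. The remaining gene, syt1b, had too few counts to be fitted in some of them. The count called higher, 1 with the reported settings, was 5 without a low-count filter, 10 with DESeq2, 0 with scaling by neuron markers and 0 without WT 67 and hm41 69, and 0 to 1 without 1 library. The median log2 fold change of the 40 genes was 0.56 with library totals alone (all genes 0.20) and 0.071 with neuron scaling, and 0.27 to 0.44 without 1 library. With neuron scaling 5 genes were higher and 4 lower at an unadjusted p under 0.05 (all genes 0.716% and 18.8%). Without overlap, 8 were then higher and 4 lower (all genes 1.59% and 24.2%). Without WT 67 and hm41 69 there were 12 higher and 2 lower at that p (all genes 5.61% and 5.07%). Without overlap, that setting had 18 higher and 5 lower (all genes 20.2% and 21.8%). Without 1 library, 13 to 19 were higher and 0 to 1 lower at that p. In those fits 3.77% to 5.64% of all genes were higher at that p, and 0% to 0.112% were called higher. There 15 to 24 members were higher and 0 to 1 lower without overlap, with 11.9% to 14.1% of all genes higher. The shares of all genes lower were not computed for those fits, so the counts of members lower stand without a background. Of the other presynaptic genes, 1 was called higher without a low-count filter (all genes 0.242%) and 3 with DESeq2 (all genes 0.706%). With neuron scaling 1 was called lower, against 161 of all 19275 genes, so that count is near the background.

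Signs turned for genes whose value was near 0 with the reported settings. With library totals alone the values were pclob 0.10, rims2a 0.21, rims2b 0.22, syngr1a 0.21 and syt2a 0.024. With a term for LOC110438492 they were pclob 0.025, rims2a 0.0061, rims2b 0.13, syngr1a 0.010 and syt5a -0.082, and DESeq2 gave 0.0054 for syngr1a. With neuron scaling they were bsnb -0.072, cplx3b -0.055, dnm1a -0.11, snap25b -0.11, synj1 -0.044, syt11a -0.087, syt1a -0.092, syt4 -0.087, syt5a -0.24 and vamp2 -0.10. Without WT 67 and hm41 69 they were rims2b 0.25, syt5a -0.13 and vamp2 -0.50. With these 2 libraries left out, vamp2 and syn2b were the 2 members lower at an unadjusted p under 0.05 in edgeR, against 5.07% of all genes. Without 1 library the ranges were -0.16 to 0.11 for rims2a, -0.27 to 0.21 for rims2b, -0.046 to 0.034 for syngr1a, -0.17 to 0.26 for syt5a and -0.30 to 0.44 for vamp2. The paralog ratio differences ranged from -0.40 to 0.26 for rims2a/rims2b and from -0.45 to 0.062 for stxbp1a/stxbp1b. The causes were not tested. No paired analysis was run, since the labels name no pairs of libraries. Levels per transcript length were not run.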
